A study of Xenopus tropicalis with 12 samples.

Results

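The comparison described here set explants that received morpholinos against both SUV4-20H enzymes together with human PHF8 mRNA (hRescue) against explants that received the human PHF8 mRNA without these morpholinos (hPhf8). It took 6 of the 12 libraries of the series, 3 of each group, chosen by their sample titles. All libraries were made from total RNA of Xenopus tropicalis animal caps, explants of prospective ectoderm that form a mucociliary epidermis in culture, at the neurula-equivalent stage NF16. The 6 remaining libraries came from explants with a control morpholino (CoMo, 3 libraries) or with LacZ mRNA (LacZ, 3 libraries), and served to define the level without PHF8 mRNA and without SUV4-20H morpholinos. The hRescue and hPhf8 groups shared the PHF8 mRNA and differed by design in the morpholinos. The study describes the hPhf8 group as injected with the mRNA alone. An effect of the SUV4-20H morpholinos thus cannot be told apart from that of any morpholino, or from the library differences given below. About 30 caps were pooled for a library according to the methods of the study, and nothing in the sources stated whether equal replicate numbers came from the same clutch, so p-values measured the spread between these libraries.

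SUV4-20H1 and SUV4-20H2 are methyltransferases that turn monomethylated lysine 20 of histone H4 into the dimethylated and trimethylated forms. PHF8 is a demethylase that removes, among other marks, the monomethyl group at this position. In the frog epidermis, multiciliated cells arise next to ionocytes and secretory cells. They leave the cell cycle, amplify their centrioles and grow a tuft of motile cilia under a program that includes the transcription factors foxj1, rfx2, tp73 and foxn4. A morpholino blocks translation or splicing of its target RNA, so the transcript of a target gene is not by itself a check of the knockdown.

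The depth of the libraries limited the comparison. The 3 hRescue libraries held 5258667 to 7444628 read pairs on the sense strand of genes, and the hPhf8 libraries held 14484963, 2204210 and 10424713 in replicates 1 to 3, and the controls, CoMo and LacZ, held 14361942 to 35584520. hPhf8 replicate 2 stood apart. It had reads in 12575 genes, against 18617 to 21185 in the other libraries, and 23.5% of its gene counts lay on the antisense strand, against 2.34% to 4.15% elsewhere. Over the genes tested without it, the SD of the log2 difference from hPhf8 replicates 1 and 3 was 1.86 and 1.83, and between these 2 libraries it was 0.73. Counts of calls are therefore given with all 6 libraries and with the 5 libraries that remain without hPhf8 replicate 2, and values of single genes over 6 libraries where not stated otherwise. The hRescue libraries stood apart in another way, because features without a gene ID took 53.9% to 60.9% of their feature counts, whereas hPhf8 had 20.0% to 26.0% and the controls 16.6% to 31.6%. The part of that share in the results below was not tested. Of 50 genes of epidermal structure and adhesion, 0 were without reads in any group, and their summed level was 16256 to 20313 CPM (counts scaled to library size, with TMM scaling over all 12 libraries) in hRescue, 19263 to 23200 CPM in hPhf8 and 19155 to 27953 CPM in the controls. Among them the surface marker epcam stood at 1531 to 2229 CPM in hRescue and at 1033 to 1344 CPM in hPhf8, whereas tp63, the factor of basal epidermal progenitors, stood at 52.4 to 130.01 CPM in hRescue and at 809 to 1103 CPM in hPhf8.

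Transcripts of the targeted and related genes were examined first. suv420h1, the gene of SUV4-20H1, had 58.5, 49.9 and 66.1 CPM in hRescue, against 62.4, 62.0 and 70.5 CPM in hPhf8. Its log2 fold change was -0.07 (SE 0.20, edgeR adjusted p = 0.851), and the groups overlapped. kmt5c, the gene of SUV4-20H2, had 136, 120.5 and 125 CPM in hRescue, against 90.7, 124 and 93.9 CPM in hPhf8, with a log2 fold change of 0.43 (SE 0.17, adjusted p = 0.117). The frog phf8 gene itself stood at 120.5, 109.8 and 116 CPM in hRescue and at 119, 151 and 147 CPM in hPhf8, with a log2 fold change of -0.16 (SE 0.17, adjusted p = 0.556). The injected human mRNA was not counted by the frog gene models as far as the sources state. setd8, the gene of the enzyme that places the monomethyl mark, had a log2 fold change of 0.03 (SE 0.20, adjusted p = 0.939), and orc1, whose protein binds the dimethyl mark, one of 0.23 (SE 0.35, adjusted p = 0.690).

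Of these 8 genes, 3 were called over 6 libraries and 2 over 5. l3mbtl1, whose protein binds the monomethyl and dimethyl marks and compacts chromatin, had 23.1, 21.6 and 17.04 CPM in hRescue, against 1.53, 0.496 and 3.58 CPM in hPhf8. All 3 hRescue libraries lay above every hPhf8 library, with a log2 fold change of 3.35 (SE 0.56, adjusted p = 0.00411) over 6 libraries and 3.04 (SE 0.40, adjusted p = 0.000783) over 5. Its relative l3mbtl3 went the other way. It had 13.1, 8.29 and 13.5 CPM in hRescue, against 47.6, 32.2 and 46.3 CPM in hPhf8, with a log2 fold change of -1.78 (SE 0.31, adjusted p = 0.00502). tp53bp1, whose protein binds the dimethyl mark in the DNA damage response, had 182, 117 and 152 CPM in hRescue, against 40.1, 68.0 and 108 CPM in hPhf8. Its call was lost in the smaller set, with an adjusted p of 0.0397 over 6 libraries and 0.0685 over 5.

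Over all genes, 3224 of the 15783 tested with 6 libraries passed an adjusted p of 0.05 in edgeR's quasi-likelihood test, which is a background of 20.4% called. Of these, 1446 (9.16% of those tested) were higher and 1778 (11.3%) lower in hRescue. With 5 libraries, 5186 of 17222 genes were called (30.1%), 2219 higher (12.9%) and 2967 lower (17.2%). The 2 sets of calls were largely nested. In all, 3172 genes were called in both with the same direction, 1404 higher and 1768 lower, which was 98.4% of the calls with 6 libraries and 61.2% of the calls with 5. No gene was called in opposite directions. The 2014 genes gained without hPhf8 replicate 2 included 229 that had too few reads to be tested with it. Of the 52 genes called only with it, 10 were lower in hRescue, and hPhf8 replicate 2 was the highest of the 6 libraries for 10.

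hPhf8 replicate 2 had no part in the 5-library calls, and its own values were read against them as a description. It lay nearer to hPhf8 replicates 1 and 3 than to hRescue for 3808 of the 5186 genes (73.4%) (77.6% of the higher and 70.3% of the lower ones). That share was uneven. It was 91.9% for the 3172 genes called both with and without hPhf8 replicate 2, where this library took part in 1 of the calls. For the 2014 genes called only without it, the share was 44.3% (892 genes), and 28.3% of them had 0 counts in it. Its own values bear on which genes fall in either set. hPhf8 replicate 2 had 0 counts for 911 of the 5186 genes (17.6%), where a low level and a low depth cannot be told apart. Among the 3810 called genes with at least 10 counts in that library, the share on the hPhf8 side was 75.1%.

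The counts of calls depended on single libraries more than the directions did. With all 6 libraries, leaving out hRescue replicate 1 gave 1576 calls and leaving out hRescue replicate 2 gave 1791. Within the 5-library set, leaving out hPhf8 replicate 1 or 3 gave 2769 and 3421 calls, where the lone hPhf8 library was assumed to vary as the hRescue libraries did. Scaling by library size alone, without TMM, moved the median log2 fold change of all genes up by 0.12 over 6 libraries and by 0.15 over 5. The majority of calls then turned, with 2643 higher and 2436 lower over 5 libraries and 1729 and 1573 over 6. Over 6 libraries it turned with DESeq2 as well, with 2299 higher and 2175 lower. The excess of lower over higher calls thus depended on the scaling.

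The genes named next were taken by one rule. They are the 10 higher and the 10 lower genes with the largest change among genes called both ways with a mean of at least 100 counts. A gene can reach that mean through 1 group alone. Several had few counts in the other group, where the size of the change is uncertain. The groups did not overlap by the rule, so the separation was not counted as a finding. Among those higher in hRescue were mafa and mafb, which encode basic leucine zipper transcription factors. mafb had 452, 499.6 and 254 CPM in hRescue, against 18.1, 8.93 and 9.13 CPM in hPhf8, with a log2 fold change of 5.09 (SE 0.42, adjusted p = 0.000299). mafa had 46.0, 37.6 and 22.7 CPM in hRescue, against 0.487, 1.98 and 0.448 CPM in hPhf8, with a log2 fold change of 5.80 (SE 0.56, adjusted p = 0.000555). In both, hRescue replicate 3 was the lowest of its group and still lay far above hPhf8. ras-dva, a small GTPase studied in Xenopus ectoderm, had 228, 238 and 118 CPM in hRescue, against 4.59, 0 and 5.73 CPM in hPhf8, with a log2 fold change of 5.61 (SE 0.62, adjusted p = 0.000818). irg1, which makes itaconate in activated macrophages of mammals, had 281, 684 and 378 CPM in hRescue, against 15.4, 23.3 and 14.5 CPM in hPhf8. Its level also varied between control libraries, from 4.29 to 49.9 CPM, and remained under the hRescue values in each of them. hist1h2bk, an H2B histone gene, had 85.5, 95.6 and 48.1 CPM in hRescue, against 2.29, 2.48 and 1.61 CPM in hPhf8. The others were the neuropeptide precursor vgf, the AP-1 subunit fosl1, the zinc finger factor egr1, the endodermal factor sox17a and the protocadherin pcdh9. Their log2 fold changes lay between 4.98 and 5.56 over 6 libraries.

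The 10 lower genes are described in the same way. gas2l2, whose protein sits at the base of motile cilia in mammals and frogs, had 5.68, 4.72 and 10.4 CPM in hRescue, against 161, 111 and 87.3 CPM in hPhf8, with a log2 fold change of -4.04 (SE 0.37, adjusted p = 0.000529). tppp3, a tubulin-binding protein, had 0.437, 1.30 and 2.64 CPM in hRescue, against 36.3, 30.8 and 16.9 CPM in hPhf8. erich3, found in cilia, had 1.64, 1.95 and 5.27 CPM in hRescue, against 66.5, 30.8 and 49.4 CPM in hPhf8. For these 3 genes the highest hRescue library was replicate 3. chga, which encodes chromogranin A of secretory granules, had 9.39, 8.94 and 21.3 CPM in hRescue, against 132, 732 and 289 CPM in hPhf8, with a log2 fold change of -4.71 (SE 0.60, adjusted p = 0.00135). hPhf8 replicate 2 was the highest library for chga, and without it the log2 fold change was -4.00. hgf, the hepatocyte growth factor gene, had 0.764, 0.650 and 1.58 CPM in hRescue, against 34.9, 28.8 and 25.5 CPM in hPhf8. elovl2, an elongase of long fatty acids, had 0.764, 2.11 and 8.26 CPM in hRescue, against 92.6, 51.1 and 41.9 CPM in hPhf8. tusc5, cat2, kiaa0895 and cdkl2 completed the group, with log2 fold changes of -4.25, -5.98, -4.22 and -4.06. cat2 was the least well counted of them, at 0, 0.325 and 0.703 CPM in hRescue.

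**Figure D1:**
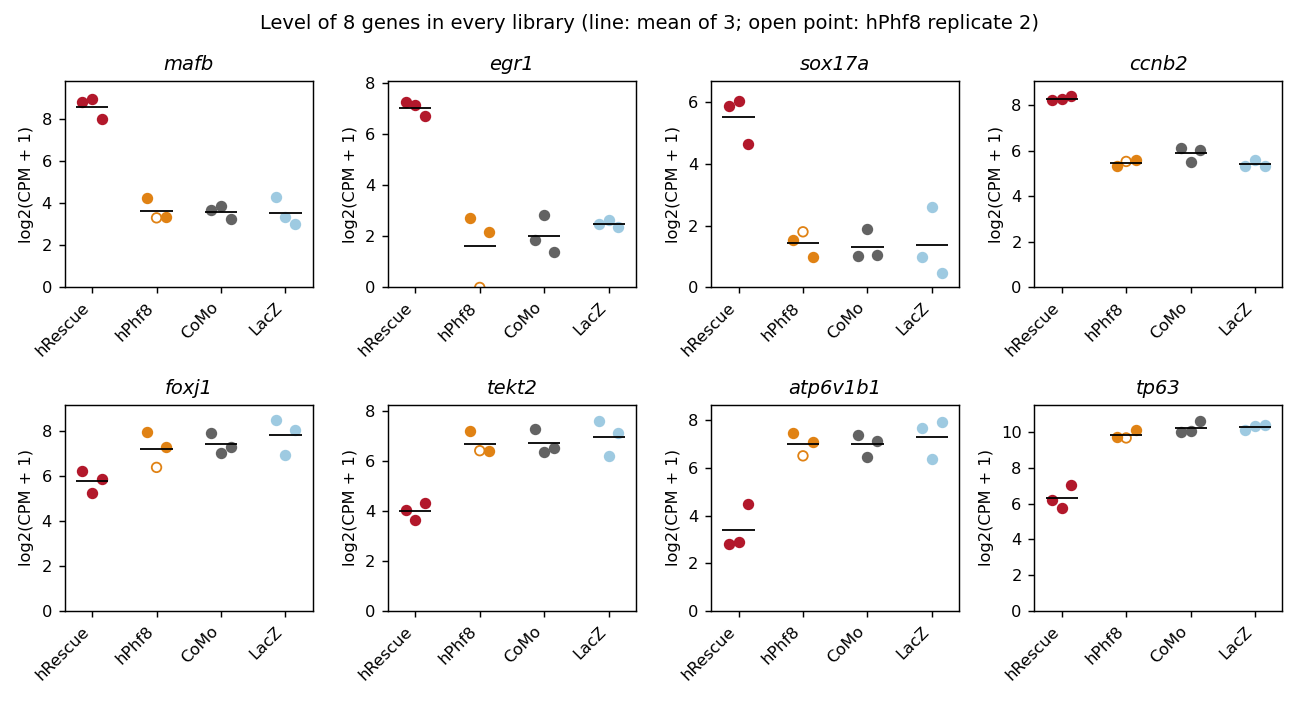
Level of 8 genes, as log2 of CPM plus 1, in the 3 libraries each of hRescue, hPhf8, CoMo and LacZ, with 1 point a library, a line at the mean of 3, and hPhf8 replicate 2 as an open point. The 4 genes in the upper row are higher in all hRescue libraries and the 4 in the lower row are lower, and the hPhf8 points lie among or near the control points.

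Gene groups were read from lists of symbols. Symbols came from ID and name pairs in the supplementary tables of the study, which were cut to the genes with the smallest p-values. These tables included the study's own comparison of hRescue with hPhf8. IDs with a symbol were thus enriched in calls by construction, and counts of list members called are not independent of the comparison. Of the 4845 IDs with a symbol tested over 6 libraries, 43.9% were called, 17.9% higher and 26% lower, and of 4923 over 5 libraries 56.2% were called, 21.7% higher and 34.5% lower. IDs named in tables without a morpholino-injected group were called in 27.9% of cases over 6 libraries (10.6% higher and 17.3% lower) and in 38.9% over 5 (13.9% higher and 25% lower). The counts below are to be read against these shares, and a symbol that never reached the tables is missing from its list. The median log2 fold change over all genes was 0.02 with 6 libraries and -0.02 with 5.

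Regulators of the multiciliated cell were lower in hRescue for 12 of the 13 tested, over 6 and over 5 libraries, with a median log2 fold change of -1.70 and -1.87. foxj1, the master regulator of motile cilia, had 74.2, 36.6 and 56.7 CPM in hRescue, against 246, 81.8 and 156 CPM in hPhf8. The gap to hPhf8 replicate 2 was small, and the log2 fold change was -1.47 (SE 0.42, adjusted p = 0.0361) with it and -1.83 (SE 0.30, adjusted p = 0.00215) without it. rfx2, a transcription factor that acts with foxj1, had 226, 203 and 259 CPM in hRescue, against 494, 436 and 461 CPM in hPhf8. It fell by 0.92 on the log2 scale (SE 0.18, adjusted p = 0.00843), the smallest fall among the 12 over 6 libraries. tp73 (-2.13), foxn4 (-2.29) and the multicilin relative mci-like (-1.93), which stand at the head of the program, also fell. In bulk RNA of explants, fewer cells of a type and less RNA per cell cannot be told apart.

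The other 8 of these 13 genes serve centriole amplification. ccdc67 (deup1), a scaffold of the deuterosome on which centrioles are multiplied, had 9.17, 12.7 and 18.4 CPM in hRescue, against 105, 199 and 80.1 CPM in hPhf8, with a log2 fold change of -3.12 (SE 0.36, adjusted p = 0.000948). ccdc78, another protein of this structure, fell by 3.00 on the log2 scale (SE 0.43, adjusted p = 0.00202). plk4, the kinase that starts centriole duplication, had 55.8, 53.5 and 69.7 CPM in hRescue, against 227, 209 and 186 CPM in hPhf8. All 3 of these genes were lower in each hRescue library than in any hPhf8 library. stil (-1.59), sass6 (-1.01), cep152 (-1.13) and cdc20b (-2.06) fell as well. cep63, at 2.11 to 3.38 CPM in hRescue and 4.59 to 8.93 CPM in hPhf8, was not called, with a log2 fold change of -1.01 (SE 0.56, adjusted p = 0.241).

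The cilium itself followed. Of 98 genes of the motile axoneme, 84 were lower and 0 higher over 6 libraries, with a median log2 fold change of -1.79, and 94 were lower and 1 higher over 5, with a median of -2.02. Summed over the list, the level was 2452 to 3936 CPM in hRescue, against 8180 to 12738 CPM in hPhf8 and 7977 to 19711 CPM in CoMo and LacZ. tekt2, a tektin of the axonemal doublets, had 15.7, 11.5 and 19.0 CPM in hRescue, against 146, 84.8 and 84.9 CPM in hPhf8, with a log2 fold change of -2.69 (SE 0.32, adjusted p = 0.00105). dnai2, an intermediate chain of outer dynein arms, fell by 2.45 on the log2 scale (SE 0.39, adjusted p = 0.00307). The 4 members not called lower over 5 libraries were dnah5 (-0.72), tubd1 (-0.18), ttll1 (1.13) and tubb3 (2.19), and tubb3, the tubulin of neurons, was the one called higher. Of 54 tested genes of ciliary transport and the transition zone, the gate at the base of the cilium, 39 were lower and 0 higher over 6 libraries. Over 5 libraries, 52 of 55 were lower, with a median of -1.91. rpgr, a protein of that gate, had 4.37, 1.79 and 2.46 CPM in hRescue, against 23.8, 29.3 and 22.2 CPM in hPhf8.

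**Figure D2:**
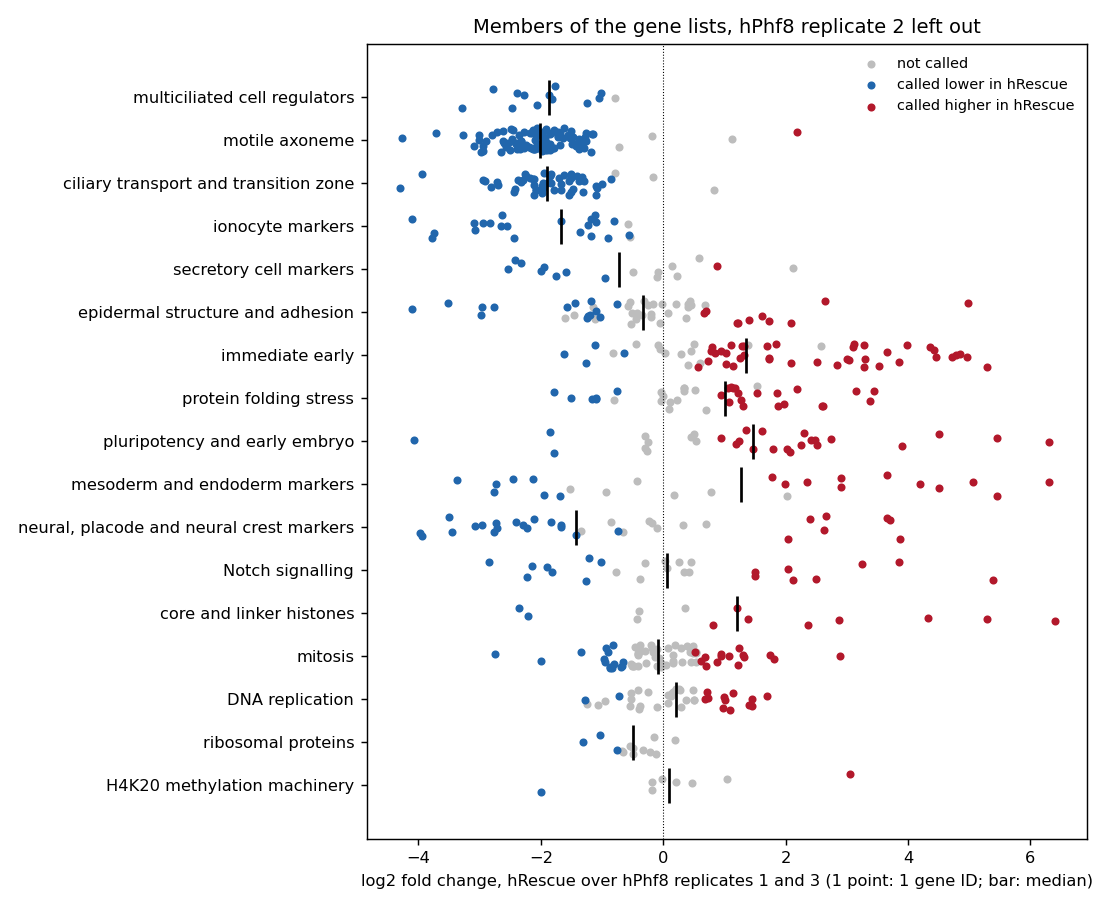
Log2 fold changes of hRescue over hPhf8 replicates 1 and 3 for the tested members of the gene lists, 1 point a gene ID, coloured by the call, with a bar at the median of each list. Nearly all cilium and ionocyte genes lie left of 0 and most immediate early genes right of it, while embryonic and neural lists spread to both sides.

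Ionocytes, the proton and ion transporting cells of the same epidermis, were represented by 23 tested genes. Over 6 libraries 13 were lower and 0 higher, with a median log2 fold change of -1.40, and over 5 libraries 21 were lower, with a median of -1.67. atp6v1b1, a subunit of their proton pump, had 6.11, 6.50 and 21.6 CPM in hRescue, against 174, 90.3 and 137 CPM in hPhf8, with a log2 fold change of -3.51 (SE 0.51, adjusted p = 0.00225). The carbonic anhydrase ca2 (-3.76) and the anion exchanger slc26a4 (-3.38) fell too. foxi1, the factor that specifies these cells, had 221, 146 and 179 CPM in hRescue, against 406, 174 and 380 CPM in hPhf8. It overlapped with hPhf8 replicate 2, and was called without that library only, with adjusted p-values of 0.162 over 6 libraries and 0.00427 over 5.

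Secretory cell markers were mixed. Of 16 tested, 7 were lower and 0 higher over 6 libraries, with a median of -0.69, and 8 were lower and 1 higher over 5, with a median of -0.72. foxa1, a factor of the small secretory cells, had 4.48, 9.92 and 13.001 CPM in hRescue, against 63.7, 30.3 and 26.7 CPM in hPhf8. capn8, a calpain of mucous cells in mammals, fell by 2.63 on the log2 scale (SE 0.25, adjusted p = 0.000555). In contrast, otog, which encodes the secreted mucin-like protein otogelin, had 4634, 4463 and 5509 CPM in hRescue, against 6101, 4863 and 4418 CPM in hPhf8, with a log2 fold change of 0.02 (SE 0.24, adjusted p = 0.961). The secretory marker itln1 was lower in all 14 alternative settings over 6 libraries, with log2 fold changes from -2.25 to -1.69, and from -2.28 to -0.90 over 5. For the marker agr2 they ran from -0.93 to -0.42 over 6 libraries, not called in any setting, and from -0.74 to -0.29 over 5.

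Structural genes of the epidermis were called about as often as IDs with a symbol at large. Of 49 tested over 6 libraries, 10 were higher and 12 lower, where the shares of 17.9% and 26% would correspond to a similar number, and of 50 over 5 libraries 10 were higher and 14 lower. tp63 had 72.5, 52.4 and 130.01 CPM in hRescue, against 849, 809 and 1103 CPM in hPhf8, with a log2 fold change of -3.35 (SE 0.34, adjusted p = 0.000679). It ranged from 1017 to 1571 CPM in CoMo and LacZ. krt12, a keratin of the larval skin, fell by 2.86 on the log2 scale, and the tight junction gene cldn1 by 3.91. cldn1 was uneven among hRescue libraries, with 11.2, 1.30 and 57.8 CPM against 295 to 499.8 CPM in hPhf8. On the other side, cnfn.1, a cornifelin gene of the cornified envelope, had 369, 548 and 505 CPM in hRescue, against 140.4, 177 and 84.4 CPM in hPhf8. epcam was called over 6 libraries with a log2 fold change of 0.78 (adjusted p = 0.0376) and not over 5 (adjusted p = 0.0508).

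Immediate early genes, which cells transcribe within minutes of a stimulus, had the highest share of higher genes of the 18 lists. Of 55 tested over 6 libraries, 40 were higher and 3 lower, with a median log2 fold change of 1.61, and of 56 over 5 libraries 40 were higher and 4 lower, with a median of 1.35. egr1 had 151, 137 and 102 CPM in hRescue, against 5.49, 0 and 3.49 CPM in hPhf8, with a log2 fold change of 5.19 (SE 0.57, adjusted p = 0.000818). ier3 had 175, 174 and 103 CPM in hRescue, against 6.26, 10.9 and 5.28 CPM in hPhf8. The AP-1 genes rose together, with log2 fold changes of 4.27 for fos, 4.54 for fosb, 4.31 for jun, 3.63 for junb, 4.39 for jund and 5.41 for fosl1. The orphan receptor genes nr4a1 (3.93) and nr4a2 (4.65) and the stress factor atf3 (3.39) rose with them. The lower members over 6 libraries were the RNA-binding protein gene zfp36l1 (-1.44), the phosphatase gene dusp4 (-1.13) and klf6 (-0.96). Summed over the list, the level was 8806 to 11526 CPM in hRescue, against 3832 to 4288 CPM in hPhf8 and 3921 to 5595 CPM in CoMo and LacZ.

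Of 38 genes of protein folding and the unfolded protein response, 16 were higher and 4 lower over 6 libraries, and 19 and 6 over 5. ddit3, a factor of the integrated stress response, had 68.2, 84.5 and 41.1 CPM in hRescue, against 7.37, 0 and 4.57 CPM in hPhf8. The chaperone gene hspa1b had 35.0, 34.6 and 13.4 CPM in hRescue, against 3.34, 1.49 and 2.96 CPM in hPhf8. Among the lower members, hspa14 had log2 fold changes from -1.78 to -1.51 in the alternative settings over 6 libraries. Summed over the list, the groups overlapped, with 8036 to 11079 CPM in hRescue, 7913 to 9859 CPM in hPhf8 and 8669 to 10894 CPM in CoMo and LacZ.

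Genes of the early embryo were higher in the main. Of 29 tested, 17 were higher and 2 lower over 6 libraries, with a median log2 fold change of 1.66, and 19 were higher and 3 lower over 5. The Oct4 relatives pou5f3.1 (1.86), pou5f3.2 (2.57) and pou5f3.3 (2.43), which hold early frog cells in an uncommitted state, all rose. So did the ventral homeobox genes ventx1.1 (1.80), ventx1.2 (2.16), ventx2.1 (1.66) and ventx2.2 (1.66), and vegt (3.46), a T-box factor of mesoderm and endoderm. sall2, by contrast, had 1.96, 0.976 and 0.878 CPM in hRescue, against 9.32, 15.9 and 36.7 CPM in hPhf8, and the let-7 inhibitor gene lin28b fell by 1.57 on the log2 scale.

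Germ layer markers spread to both sides. Of 23 tested mesoderm and endoderm markers, 9 were higher and 7 lower over 6 libraries, and 11 and 7 of 24 over 5. mixer had 19.8, 13.8 and 6.15 CPM in hRescue, against 0.139, 0.992 and 0.179 CPM in hPhf8, and eomes had 23.6, 16.3 and 7.73 CPM in hRescue, against 0.278, 0 and 0.448 CPM in hPhf8. sox17a had 57.4, 63.9 and 23.7 CPM in hRescue, against 1.88, 2.48 and 0.985 CPM in hPhf8. Among the lower ones were the heart field genes hand2 (-4.04), nkx2-5 (-2.25) and nkx2-3 (-1.58). Among 32 tested markers of neural tissue, placodes and neural crest, 7 were higher and 13 lower over 6 libraries, and 7 and 18 of 33 over 5. stmn1, a tubulin-binding protein abundant in neurons, had 6.44, 8.13 and 13.9 CPM in hRescue, against 123, 70.4 and 83.1 CPM in hPhf8. snai1 (-2.05) and snai2 (-2.92) of the neural crest fell, and sox9 (3.09) and zic1 (2.75) rose. Summed over the mesoderm and endoderm list, the level was 391 to 545 CPM in hRescue, 375 to 690 CPM in hPhf8 and 398 to 666 CPM in CoMo and LacZ. Summed over the neural list it was 593 to 754 CPM in hRescue, 881 to 1281 CPM in hPhf8 and 859 to 1255 CPM in CoMo and LacZ. The part of other cell types in the results above was not tested.

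Most genes of the cell cycle lists were not called. Of 70 mitotic genes, 13 were higher and 10 lower over 6 libraries, with a median log2 fold change of 0.01, and 15 and 15 over 5, with a median of -0.08. ccnb2, a B cyclin of mitosis, had 299.9, 303 and 334 CPM in hRescue, against 38.7, 45.1 and 46.7 CPM in hPhf8, with a log2 fold change of 2.95 (SE 0.18, adjusted p = 0.000180). ccna1, the A cyclin of embryos, had 10.4, 14.1 and 20.03 CPM in hRescue, against 119, 44.6 and 81.8 CPM in hPhf8, and the spindle checkpoint gene mad2l1 fell by 2.01 on the log2 scale. Of 39 DNA replication genes, 11 were higher and 2 lower over 6 libraries, and 12 and 2 over 5. The replication factor gene rfc1 rose by 1.64 on the log2 scale, the repair gene tonsl by 1.37 and the E2F factor gene e2f8 by 1.30. Among 13 tested core and linker histone genes, 6 were higher and 2 lower over 6 libraries, and 8 and 2 over 5. The higher ones included hist1h2bk (5.29) and hist2h3d (4.09), copies of multigene families whose reads can be split among near-identical genes. h1f0, the linker histone of cells that have stopped dividing, had 11.9, 18.7 and 16.7 CPM in hRescue, against 75.01, 52.1 and 86.5 CPM in hPhf8, and h2afy, a macroH2A gene, fell by 2.23 on the log2 scale.

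The direction of change varied with the baseline level of a gene, taken as its mean CPM in the 6 CoMo and LacZ libraries, which were in neither group of this comparison. Among genes under 1 CPM, 284 were called higher and 5 lower over 6 libraries, of 2416 tested. At 5 to 20 CPM the numbers were close, with 294 higher and 287 lower of 3538, and at 20 to 100 CPM 474 were higher and 845 lower of 4374. At 100 CPM and over, 183 were higher and 559 lower of 2334. The median log2 fold change ran in the same order, at 0.95, 0.16, -0.04, -0.12 and -0.18 from the lowest to the highest of the 5 bins.

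In the 5-library fit lower calls were already in excess at 5 to 20 CPM. Under 1 CPM 577 genes were higher and 31 lower, at 1 to 5 CPM 414 and 280, at 5 to 20 CPM 485 and 640, at 20 to 100 CPM 564 and 1272, and at 100 CPM and over 179 and 744. The share of tested genes called lower was 0.831% in the lowest bin and 31.9% in the highest, while the share called higher varied between 7.67% and 15.5%. With library size only, the bin of 5 to 20 CPM had more higher than lower calls in either fit, with 346 and 256 over 6 libraries and 573 and 507 over 5. At 100 CPM and over, lower calls remained in excess with that scaling, with 267 higher and 490 lower over 6 libraries and 300 and 637 over 5. The ends of the range were also read in each hRescue library by itself. Against the mean of hPhf8 replicates 1 and 3, the median log2 difference under 1 CPM was 0.76, 0.63 and 0.48 in hRescue replicates 1 to 3, and at 100 CPM and over it was -0.38, -0.29 and -0.14. hRescue replicate 3 had the smallest difference in both bins. Its medians at 5 to 20, 20 to 100 and 100 CPM and over were -0.13, -0.16 and -0.14, without a steady order, whereas those of replicates 1 and 2 fell from bin to bin.

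**Figure D3:**
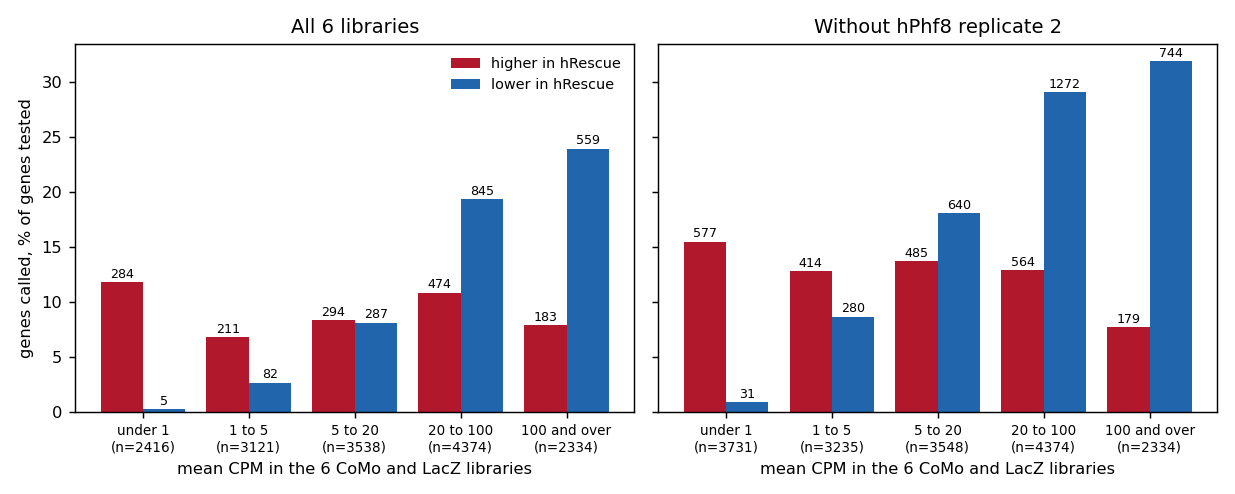
Genes called higher or lower in hRescue, as percent of the genes tested, in 5 bins of mean CPM over the CoMo and LacZ libraries, with all 6 libraries and without hPhf8 replicate 2, and with the number of genes above each bar. Bars for lower calls grow from 0.207% to 24.0% across the bins over 6 libraries and from 0.831% to 31.9% over 5.

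The filter bears on the lowest bin. A gene had to have a read in 5 of 6 or 4 of 5 libraries, so a gene nearly silent in hPhf8 could enter through its reads in hRescue. A gene without a read in any hRescue library could not enter, nor could a gene without a read in any hPhf8 library. The small number of lower calls in this bin is thus set in part by the filter. With no filter, 807 genes were higher and 132 lower of 10027 under 1 CPM over 5 libraries, and the median log2 fold change was 1.09. Depth bears on it too, because 3 counts corresponded to 0.328 to 0.527 CPM in the hRescue libraries and to 0.209, 1.49 and 0.269 CPM in hPhf8 replicates 1 to 3, so that a fall from under 1 CPM was hardly detectable. With the baseline taken from hPhf8 replicates 1 and 3, 612 genes were higher and 3 lower under 1 CPM. That baseline shares libraries with the comparison.

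To ask whether the PHF8 mRNA without SUV4-20H morpholinos had moved the changed genes, their level in hPhf8 replicates 1 and 3 was set against the controls. Of the 5186 genes called over 5 libraries, 2785 (53.7%) had both hPhf8 libraries within the range of the 6 CoMo and LacZ libraries on the log2 CPM scale, 1792 had 1 of the 2 and 609 (11.7%) had neither. For all 17222 genes tested the shares were 50.04% and 12.4%. By this range, the changed genes lay at the control level in hPhf8 about as often as genes at large. For the 3224 genes called over 6 libraries, both were inside for 1810 (56.1%) and neither for 339 (10.5%).

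In size, the distance of hPhf8 from the controls was small beside that of hRescue. For the 2219 genes higher in hRescue, the median difference of log2 CPM from the control mean was 1.49 in hRescue and -0.08 in hPhf8 replicates 1 and 3. For the 2967 lower genes it was -1.49 in hRescue and 0.00 in hPhf8. hPhf8 lay at least 2-fold from the controls for 177 of the 5186 genes (3.41%), against 3.97% of all genes tested. All 3 hRescue libraries lay beyond the control range on one side for 4592 of the 5186 (88.5%), against 42.4% of all genes tested. The 5186 genes were selected by their difference between hRescue and hPhf8. A large distance of hRescue from the controls therefore follows in part from the selection and was not counted as a finding. The hRescue against hPhf8 and the hPhf8 against control differences share the hPhf8 libraries, so no correlation between them was computed. Shares of hPhf8 against the controls that are split by call or direction, here and below, carry this limit.

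**Figure D4:**
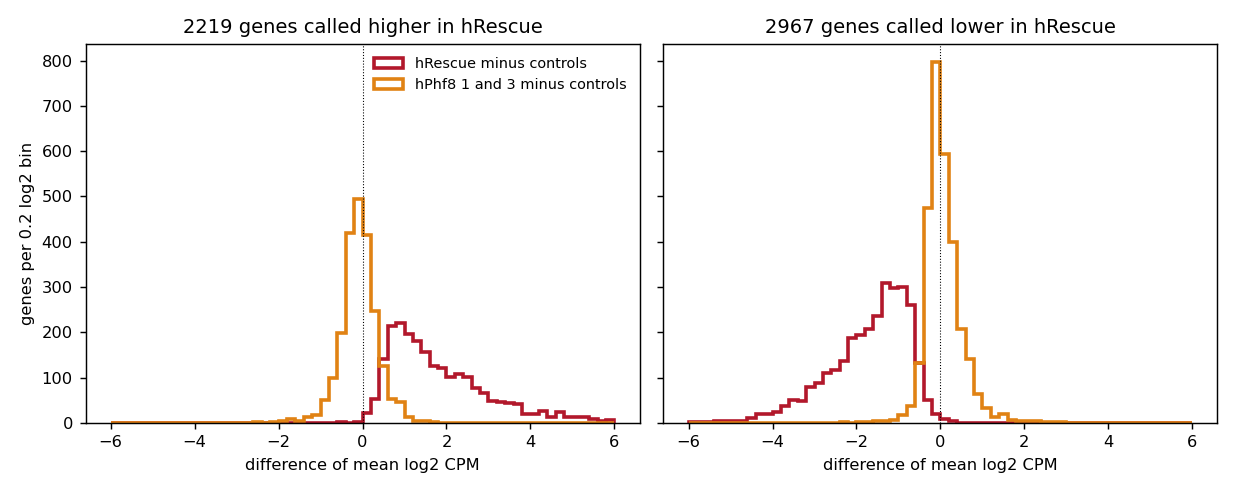
Distribution of the difference of mean log2 CPM from the 6 CoMo and LacZ libraries, for hRescue and for hPhf8 replicates 1 and 3, over the 2219 genes called higher and the 2967 called lower in hRescue without hPhf8 replicate 2, in bins 0.2 wide and with values beyond 6 drawn at the edge. The hPhf8 curves centre near 0 in both panels, with medians of -0.08 and 0.00, and the hRescue curves near 1.49 and -1.49.

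By bin of baseline level, genes lower in hRescue from a low baseline departed. For the 31 such genes under 1 CPM the median of hPhf8 replicates 1 and 3 lay 1.11 log2 units above the controls, with both libraries inside the range for 4. A call of lower expression at so low a control level needs reads in hPhf8, so the selection bears on that value. For the 280 lower genes at 1 to 5 CPM the median was 0.47, both libraries were inside for 39.3%, against 48.2% of all genes tested in that bin, and 16.8% lay at least 2-fold away, against 7.85%. These genes were called lower with the same hPhf8 libraries, so the selection bears on these values too, and they were not counted as a finding. In the higher bins of lower genes the median distance was 0.20, -0.02 and -0.13.

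The test of hPhf8 replicates 1 and 3 against the controls called 0 of 18259 genes (0% called) with edgeR, with a smallest adjusted p of 0.220. At an unadjusted p under 0.05 there were 1250 genes, and DESeq2 called 6. Among the 5186 changed genes the smallest adjusted p was 0.711. Their share at an unadjusted p under 0.05 was 8.47%, against 6.83% of all genes tested over 5 libraries. It was 6.44% for genes higher in hRescue and 9.91% for the lower ones. Adding replicate numbers to the fit as a block gave 1587 called genes, 914 higher and 673 lower in hPhf8. These were 8.69% of all genes, and 13.2% of the changed genes in that fit (669 of 5064). For genes higher in hRescue the share was 7.30%, with 82 higher and 71 lower in hPhf8 than in the controls. For the lower ones it was 17.4%, with 198 higher and 318 lower in hPhf8. Same-numbered CoMo and LacZ libraries deviated together, with correlations of 0.311 to 0.624 across genes, and hRescue with CoMo or LacZ gave 0.163 to 0.429. hPhf8 with CoMo or LacZ gave 0.026 to 0.295, with hPhf8 replicate 2 included. The difference of replicate 1 minus replicate 3 leaves that library out. On it, hPhf8 correlated at 0.388 with CoMo and 0.285 with LacZ, and CoMo with LacZ at 0.432. hRescue gave 0.095 with CoMo and 0.149 with LacZ. The same kind of fit also called genes between the controls. With the block, LacZ replicates 1 and 3 against CoMo gave 3402 called genes, hPhf8 replicates 1 and 3 against CoMo 3322, and hPhf8 replicates 1 and 3 against LacZ 2624. Without the block each of the 3 gave 0, with 1407, 820 and 1272 genes at an unadjusted p under 0.05.

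For the gene groups that changed, the hPhf8 level was read the same way. Among the 13 regulators of multiciliated cells, both hPhf8 libraries were within the control range for 12, and the median difference from the controls was -0.01 in hPhf8 and -2.15 in hRescue. That range includes replicate 2 of CoMo and LacZ, with the lowest control sums over the list (1945.5 and 1784.7 CPM, and 2031.2 in hPhf8 replicate 2). The sums in replicates 1 and 3 were 2596.5 and 2258.3 CPM in hPhf8, 3295.9 and 2402.1 in CoMo, and 3525.2 and 3037.3 in LacZ. With the block, 2 of the 13 were called, both lower in hPhf8. foxj1 had 246 and 156 CPM in hPhf8 replicates 1 and 3, against 121 to 354 CPM in CoMo and LacZ. For the 98 axoneme genes both were inside for 78, and the median difference was -0.17 in hPhf8 and -2.23 in hRescue. With the block, 39 of these 98 were called lower in hPhf8 and 0 higher, with a median absolute log2 fold change of 0.56 and 0 past 2-fold. That is 39.8% of the list, against 8.69% called over all genes in that fit, 673 of 18259 being lower, and it carries the limit just given. Of 55 genes of ciliary transport and the transition zone, 17 were called lower and 1 higher in hPhf8 with the block. For the 56 immediate early genes both libraries were inside for 34, with a median difference of -0.04 in hPhf8 and 1.21 in hRescue. Ionocyte genes had the largest median shift in hPhf8 of the 18 lists. Their median stood 0.71 above the controls in hPhf8 and 1.53 below them in hRescue, with both hPhf8 libraries inside the range for 15 of 23. The controls were uneven here. Summed over the list, hPhf8 replicates 1 and 3 held 4423 and 3873 CPM. CoMo held 2101 to 2234 CPM, and LacZ held 3463, 1857 and 4666 CPM in replicates 1 to 3. With the block, 1 of 24 ionocyte genes was called, and it was lower in hPhf8. slc26a4 had 814 and 707 CPM in hPhf8 replicates 1 and 3, against 215 to 741 CPM in CoMo and LacZ. Its log2 difference from the controls was 1.13 and was not called (adjusted p = 0.711).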

How the data were processed

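The values deposited by the authors were raw counts of read pairs, gene by gene, from NEBNext rRNA-depleted, directional, paired-end libraries. Per the labels, STAR 2.7.1a was used, and the methods name Xenbase gene models. The counts were not normalised. Sense counts (reverse setting) were used, without STAR's 4 totals and the entry without a gene ID. The 34177 IDs carry no names. Symbols for 5053 came from ID and name pairs in the study's tables, whose values were not used, and 97.4% of the distinct symbols were in the RefSeq table. Members, lists and tests were chosen with earlier results of these data known.

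Genes with at least 1 read in 75% of the libraries compared were tested with edgeR 4.0.16 in R 4.3.3 (TMM, quasi-likelihood, two-sided, Benjamini-Hochberg over all genes, calls at 0.05), tested on simulated data. SEs are the absolute log2 fold change over the square root of F. CPM used TMM factors over 12 libraries, and log2 CPM a prior count of 2. Alternatives were DESeq2 1.42.0, its size factors, library size only, 2 other filters, unstranded counts, a replicate block, 1 fit over all groups and each library left out. Named genes had a symbol held by 1 ID, a mean of at least 100 counts, calls in both fits and groups that did not overlap, ranked by the smaller absolute log2 fold change of both fits, 10 each way. In each list up to 3 members each way followed, with no count minimum. All tested members of the H4K20 and multiciliated cell lists were added, and other members named were chosen after their values were seen. Genes that overlap or share reads with close copies are uncertain. Some genes and 1 list are not reported here.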

Additional observations from a re-analysis of the deposited data

Results flagged for a closer look

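Features that lack a gene ID, left out of the tests, took 57% of the feature counts in hRescue on average (range 53.9% to 60.9%), above every CoMo and LacZ library (16.6% to 31.6%). Antisense counts, also outside the gene tests, were 3.98% of gene counts in hRescue (range 3.84% to 4.15%), above every CoMo and LacZ library (2.34% to 2.88%). Both shares were higher in 3 of 3 hRescue libraries than in these controls. In hPhf8 the antisense share was 2.58%, 23.5% and 3.62% in replicates 1 to 3, so a raised share was not particular to hRescue.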

How the results depend on the processing

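The count of genes called between hRescue and hPhf8 ranged from 1576 to 5186 with 1 of the 6 libraries left out, and from 2769 to 4736 with 1 of the 5 left out. Other settings stayed within 1.5 times the main counts, and the replicate block gave 2825 and 4748. Same-numbered hRescue and hPhf8 libraries, hPhf8 replicate 2 included, had correlations of -0.03 to 0.11 (0.163 to 0.429 between hRescue and CoMo or LacZ). hRescue replicate 3 did not correlate best with its own number in hPhf8. Whether equal numbers shared an origin was not stated in the sources. The count for hPhf8 replicates 1 and 3 against the controls was 6 with DESeq2 and 1587 with the replicate block. It was 0 in each edgeR fit that left out 1 control library, and these fits were chosen after seeing the data. Without CoMo replicate 2 the smallest adjusted p was 0.0511, near the threshold, and 2361 genes had an unadjusted p under 0.05. In the other fits without a control library the smallest adjusted p was 0.363 to 0.866. Against CoMo alone 32.1%, and against LacZ alone 32.0%, of genes called over 5 libraries had both hPhf8 libraries in range, since a range over 3 libraries is narrower.

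The median log2 fold change under 1 CPM was, over 6 and 5 libraries, 2.08 and 1.91 when genes averaged 10 counts or more, 1.11 and 1.09 with no filter, and 1.104 and 1.04 with the hPhf8 baseline. It was 1.14 with DESeq2 over 6 libraries and 1.05 with library size only over 5, where the median at 100 CPM and over was -0.10. The filter of 10 counts left 633 of 2416 genes under 1 CPM over 6 libraries and 803 of 3731 over 5. A gene so low in the controls passes that filter more readily when raised in the libraries compared. The medians of 2.08 and 1.91 are thus set in part by the filter. With 1 library left out, the median under 1 CPM ranged from 0.77 to 1.47 and from 0.58 to 1.28. At 100 CPM and over it ranged from -0.29 to -0.11 and from -0.33 to -0.19. Calls over all list members ranged from 247 to 439 and from 344 to 430. Among 121 named or marker genes, 0 calls changed direction, and many of these genes had been chosen for calls in both fits. The sign did vary for some genes that were not called. Over 5 libraries otog ranged from -0.32 to 0.17 and setd8 from -0.20 to 0.15. The call was lost in at least 1 alternative for 28 of 111 called over 6 libraries and 11 of 110 over 5. The causes were not tested. Depth limits calls of lower expression from a low baseline.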

Other observations

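Genes of Notch signalling, the pathway that spaces ciliated cells in the frog epidermis, were found on both sides. Over 6 libraries 8 of 25 were higher and 7 lower in hRescue, and over 5 libraries 8 and 8. The ligand genes jag1 and jag2 fell by 1.96 and 2.94 on the log2 scale, while the ligand gene dll1 rose by 1.47. jag2 had 1.75, 1.63 and 1.58 CPM in hRescue, against 16.3, 17.9 and 7.97 CPM in hPhf8. Several transcriptional targets of the hes and hey family were higher, with log2 fold changes of 2.26 for hey1 and 1.34 for hes4. hes2 had 76.4, 60.8 and 38.3 CPM in hRescue, against 1.599, 11.9 and 1.16 CPM in hPhf8, where replicate 2 was the highest. Of 13 tested ribosomal protein IDs, 3 were lower and 0 higher over 6 and over 5 libraries, with a median log2 fold change of -0.48 and -0.50, and rpl21 fell by 1.21 on the log2 scale. Many ribosomal protein genes had no symbol here, and near-identical copies of them make these counts uncertain.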
